A study of Mus musculus with 16 samples.

Results

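The 10 circadian genes described here are Arntl, Npas2, Nfil3, Per1, Per2, Per3, Ciart, Nr1d1, Nr1d2 and Dbp. They are fixed symbols from the core loop of the molecular clock and its best known output regulators. Clock, Cry1 and Cry2, also of the core loop, are in a separate list described further on. The choice was made with earlier results of these data known. The share of the 10 that was called is therefore a description and not a test of the clock genes as a set. All 10 were found in the read count table and all 10 passed the filter on low counts, among 14346 genes tested and 48051 rows with a gene symbol. Their transcripts were counted in polyA RNA from livers of C57BL/6J mice, in 16 libraries that form 4 groups of 4. WT-ctr is wild type on control diet, WT-EtOH is wild type under Gao-binge alcohol feeding, KO-ctr is the hepatic TSC1 knockout on control diet, and KO-EtOH is that knockout under Gao-binge alcohol feeding. A time of 10 days is given for every sample. The Gao-binge regimen joins chronic feeding of an alcohol diet, called ethanol here, with a final alcohol gavage. The labels name neither the allele nor the promoter that drove the deletion, give no age or sex, and do not state whether each library is a different mouse. The p-values therefore rest on library-to-library spread, part of which may be technical. They also give no hour of tissue collection. A group sampled at another hour and a group whose clock genes differ at the same hour cannot be told apart in these data.

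The clock of mouse cells is a loop of transcription factors. BMAL1, encoded by Arntl, pairs with CLOCK or its relative NPAS2 and activates genes through the E-box, among them the Per and Cry genes, Nr1d1, Nr1d2, Dbp and Ciart. PER and CRY proteins, and CIART (also called CHRONO), restrain that activation, while REV-ERB alpha and beta, encoded by Nr1d1 and Nr1d2, repress Arntl, Npas2 and Nfil3 through elements they share with the ROR receptors. DBP activates and NFIL3 represses genes with a D-box, which carries the rhythm on to liver metabolism, and in liver the timing of meals is a strong entraining signal. In a liver that keeps time, Arntl and Npas2 peak when Nr1d1 and Dbp are low.

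The libraries held 14.75 to 21.757 M counts each. Tsc1 itself, the targeted gene, was at 24.3 to 29.7 CPM (counts scaled to a common library size with TMM factors) in WT-ctr and at 16.2 to 23.4 CPM in KO-ctr, and at 15.8 to 19.8 CPM in WT-EtOH and 11.8 to 16.4 CPM in KO-EtOH. It fell with Tsc1 loss on control diet by 0.52 on the log2 scale (SE 0.13, adjusted p = 0.0147) and after ethanol by 0.36 (SE 0.13, adjusted p = 0.0386). The call after ethanol was lost in 14 of 23 alternatives, 9 of which left out a single library (log2 values -0.43 to -0.27 over all 23). The call on control diet was lost in 2, without KO-ctr library 3 (-0.46 log2) and without WT-ctr library 4 (-0.46 log2). Ethanol also lowered Tsc1 in wild type (-0.53 ± 0.13 log2, adjusted p = 0.00487). The summed level of 8 hepatocyte markers was 107800 to 127200 CPM in WT-ctr, 115900 to 138700 CPM in WT-EtOH, 62180 to 68090 CPM in KO-ctr and 49270 to 105200 CPM in KO-EtOH, and none of the 8 was at 0 in any group. Albumin alone averaged 80642 CPM in WT-ctr and 34472 CPM in KO-ctr, which is most of that gap. With Tsc1 loss 1 of the 8 markers was called lower on control diet, against 4.91% of all genes. After ethanol 2 of the 8 were, against 19.1% of all genes. Albumin took 3.77 and 3.51% of the counts in KO-EtOH libraries 1 and 2 and 5.41 and 6.72% in libraries 3 and 4. The KO-ctr libraries were at 3.35 to 4.11%, a range that holds the first pair and not the second. Results are also given without the first pair where that changed a call. No fit left out libraries 3 and 4 together, so which pair is unusual was not tested. In bulk liver RNA, fewer cells of a type and less RNA per cell cannot be told apart.

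Ethanol changed 9 of the 10 genes in wild type, where 33.5% of all genes tested were called, and 4 of the 10 in the knockout, where 14.1% were called. The count in the knockout was 2 without KO-ctr library 4, 3 to 6 without any other single library, and 7 by limma's voom. The number of all genes called there moved too. It was 2024 in the fit reported, 1296 without KO-ctr library 4, 1114 to 2279 over all fits without a single library, and 3302 by voom. In wild type Arntl, Npas2, Nfil3, Per1 and Ciart rose, where 17.6% of all genes did, and Per3, Nr1d1, Nr1d2 and Dbp fell, where 15.9% did. In the knockout Arntl rose, where 7% of all genes did, and Nr1d1, Nr1d2 and Dbp fell, where 7.11% did. The CPM ranges of ethanol and control libraries did not overlap for 7 of the 10 in wild type, against 30.9% of all genes, and for 6 in the knockout, against 21%. The median change of the 10 genes was 0.86 log2 in wild type and -0.14 log2 in the knockout, against -0.0060 and 0.0034 log2 over all genes tested. Genes that rose and genes that fell are mixed in the 10, so this median depends on how many of each were chosen and gives no net direction. With Tsc1 loss on control diet 0 of the 10 were called, against 12.3% of all genes (7.4% higher and 4.91% lower). With Tsc1 loss after ethanol 2 of the 10 were called, both lower (Ciart and Nfil3), against 38.7% of all genes (19.6% higher and 19.1% lower). The ethanol change differed between genotypes for these 2 genes, where 1.81% of all genes were called. The call of Nfil3 there was lost in 8 of 22 alternatives, which leaves 1 gene. All calls are from edgeR's quasi-likelihood test at a Benjamini-Hochberg adjusted p under 0.05 over all genes tested.

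**Figure D1:**
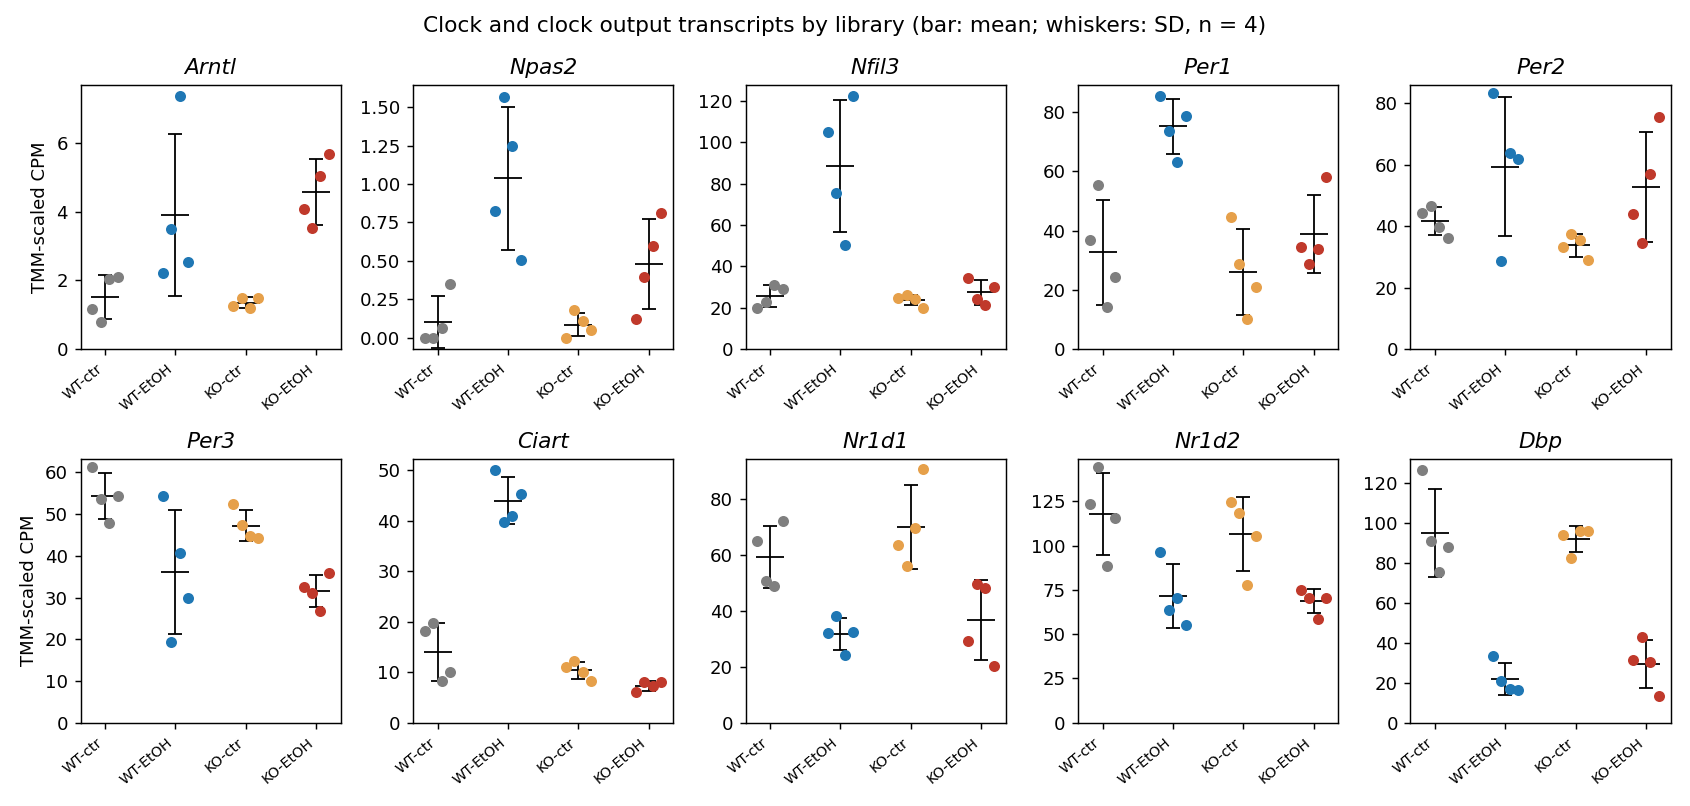
TMM-scaled CPM (y axis, linear) of the 10 genes in each of the 16 libraries (points), by group (x axis), with the mean and SD of 4 libraries. Arntl is higher and Dbp, Nr1d1 and Nr1d2 are lower in both ethanol groups, while Ciart and Nfil3 stand high in WT-EtOH and not in KO-EtOH.

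Arntl encodes the activator at the centre of the loop and was a low transcript in these livers. It had 15 to 36 counts in each WT-ctr library and 22 to 28 in each KO-ctr library. Its level was 1.17, 0.80, 2.03 and 2.09 CPM in WT-ctr and 2.22, 3.50, 7.38 and 2.53 CPM in WT-EtOH. All ethanol libraries lay above all controls, and WT-EtOH library 3 lay farthest from the rest. In the knockout it was 1.26, 1.48, 1.19 and 1.49 CPM on control diet and 4.10, 3.52, 5.05 and 5.68 CPM after ethanol, again with no overlap. The rise was 2.57-fold in wild type (1.36 ± 0.36 log2, SE, edgeR adjusted p = 0.00830) and 3.37-fold in the knockout (1.75 ± 0.36 log2, adjusted p = 0.00525). The difference between those 2 rises was 0.39 ± 0.51 log2 (adjusted p = 0.721). Without WT-EtOH library 3 the rise in wild type was 0.85 log2 (adjusted p = 0.0400). Between genotypes Arntl stood at -0.16 ± 0.38 log2 on control diet (adjusted p = 0.839) and 0.23 ± 0.34 log2 after ethanol (adjusted p = 0.611). Arntl exons share 33 bases with Gm45355 on the opposite strand, and reads from those bases cannot be assigned.

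The RefSeq promoter table (GRCm38.p6) holds 2 Arntl windows of 300 bases, each running from 250 bases before to 50 after a transcript start. A motif known as the ROR element, bound by ROR and REV-ERB receptors, was searched on both strands. It was found in 1 of the 2 windows, at 27 bases after the start base, and in 0.435% of the 32851 windows in the table. The site is shown with 10 bases on each side because Nr1d1 and Arntl moved in opposite directions under ethanol, with the element in capitals (chr7:113207528-113207557, plus strand).
Arntl: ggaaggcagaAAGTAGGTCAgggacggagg

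Npas2, the relative of CLOCK that also pairs with BMAL1, was barely counted. The WT-ctr libraries held 0, 0, 1 and 6 counts and the WT-EtOH libraries 16, 25, 21 and 9. The KO-ctr libraries held 0, 3, 2 and 1 counts and the KO-EtOH libraries 2, 7, 10 and 13. Every WT-EtOH library lay above every WT-ctr library, whereas KO-ctr library 2 lay above KO-EtOH library 1 in CPM. The fitted rise was 3.27 ± 0.76 log2 in wild type (edgeR adjusted p = 0.00341) and 2.42 ± 0.85 log2 in the knockout (adjusted p = 0.0664). At these counts the fold depends on a few reads: without WT-ctr library 4 the value in wild type was 5.31 log2. In the knockout the gene was called without WT-ctr library 4 (2.43 log2), without KO-EtOH library 1 (2.73 log2), without libraries 1 and 2 of KO-EtOH (2.96 log2), and by limma's voom with sample quality weights (2.50 log2).

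Nr1d1 and Nr1d2, the genes of the REV-ERB repressors, fell in both genotypes. Nr1d1 stood at 65.2, 50.9, 49.0 and 72.3 CPM in WT-ctr and at 32.3, 38.1, 24.2 and 32.6 CPM in WT-EtOH. Knockout livers stood at 63.6, 56.1, 69.8 and 91.0 CPM on control diet and at 29.2, 49.6, 48.1 and 20.2 CPM after ethanol. The groups did not overlap in either genotype, although KO-EtOH libraries 2 and 3 came close to the controls. Nr1d1 after ethanol was at 53.6% of the control level in wild type (-0.90 ± 0.25 log2, SE, edgeR adjusted p = 0.0114) and 52.4% in the knockout (-0.93 ± 0.25 log2, adjusted p = 0.0220). The call in the knockout was lost with no filter on low counts (adjusted p = 0.0610), with only the 2 groups compared (0.0657) and without KO-ctr library 4 (-0.78 log2, adjusted p = 0.0700).

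Nr1d2 ranged over 88.5 to 144.5 CPM in WT-ctr and 55.1 to 96.6 CPM in WT-EtOH, where WT-EtOH library 1 lay inside the control range. In the knockout the ranges were 77.7 to 124.4 CPM and 58.8 to 74.9 CPM and did not overlap. It fell by 0.72 on the log2 scale in wild type (SE 0.18, edgeR adjusted p = 0.00586) and by 0.63 in the knockout (SE 0.18, adjusted p = 0.0287). The call in the knockout was lost without KO-ctr library 1 (-0.55 log2), 2 (-0.58) or 4 (-0.64), without KO-EtOH library 3 (-0.56) or 4 (-0.64), and without libraries 1 and 2 of KO-EtOH together (-0.72). The interaction, which is the ethanol change in the knockout minus that in wild type, was -0.03 ± 0.35 log2 for Nr1d1 (adjusted p = 0.973) and 0.09 ± 0.26 log2 for Nr1d2 (adjusted p = 0.883).

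Nr1d1 shares 263 exon bases with Thra, which lies on the opposite strand, in the GENCODE M21 annotation of GRCm38 (Nr1d1 at chr11:98767932-98775333, minus strand). The strand setting of the counting is not given in the sources used here, so reads from the shared bases cannot be assigned. Thra ranged over 11.1 to 18.5 CPM in all 16 libraries and was called in none of the 5 comparisons, its largest change being 0.18 ± 0.14 log2.

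Dbp, the D-box activator and a textbook direct target of BMAL1, had the largest fall of the 10 genes in both genotypes. It was at 126.5, 90.8, 75.5 and 87.8 CPM in WT-ctr and at 33.5, 20.8, 16.8 and 16.6 CPM in WT-EtOH. KO-ctr libraries had 93.9, 82.2, 95.8 and 95.8 CPM and KO-EtOH libraries 31.4, 42.7, 30.5 and 13.2 CPM. All 8 ethanol libraries lay below all 8 controls, and KO-EtOH library 4 was the lowest of all. Dbp after ethanol was at 23.1% of the control level in wild type (-2.12 ± 0.30 log2, SE, edgeR adjusted p = 1.12e-04) and 32.1% in the knockout (-1.64 ± 0.29 log2, adjusted p = 0.00254). Knockout and wild type differed in this change by 0.48 ± 0.41 log2 (adjusted p = 0.559). Between genotypes after ethanol Dbp was at 0.43 ± 0.29 log2 (adjusted p = 0.263), and without KO-EtOH library 4 it was called higher in the knockout (0.68 log2, adjusted p = 0.0311). Dbp exons share 539 bases with Sphk2 on the opposite strand, and Sphk2, at 32.1 to 61.5 CPM over the 16 libraries, was called in none of the 5 comparisons.

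The ratio of Nr1d1 to Arntl read counts within a library needs no scaling between libraries. It is not corrected for the lengths of the genes, so it serves to compare libraries and not the levels of the 2 transcripts. It was 55.8, 63.7, 24.2 and 34.6 in WT-ctr and 50.4, 38.0, 58.6 and 61.2 in KO-ctr. After ethanol it was 14.5, 10.9, 3.27 and 12.9 in WT-EtOH and 7.12, 14.1, 9.53 and 3.55 in KO-EtOH. The 8 ethanol libraries lay below the 8 control libraries, and the genotypes overlapped on each diet. On the log2 scale the ratio was 5.37 ± 0.64 (SD, n = 4) in WT-ctr, 5.68 ± 0.31 in KO-ctr, 3.18 ± 0.99 in WT-EtOH and 2.93 ± 0.84 in KO-EtOH.

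**Figure D2:**
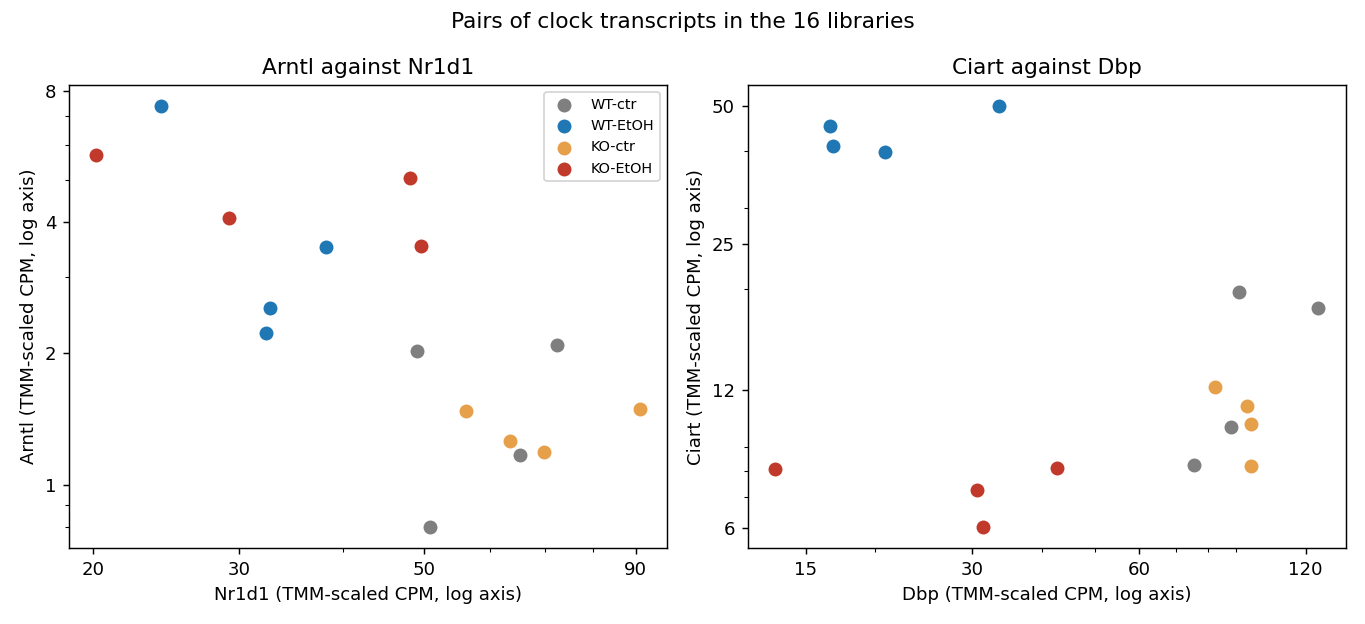
Arntl against Nr1d1 (left) and Ciart against Dbp (right), as TMM-scaled CPM on log axes, with 1 point for each of the 16 libraries coloured by group. On the left the ethanol libraries lie at higher Arntl and lower Nr1d1 than the controls of the same genotype. Across genotypes KO-EtOH library 2, at 49.6 CPM of Nr1d1, lies just above WT-ctr library 3, at 49.0 CPM. On the right WT-EtOH libraries, at 39.8 to 50.1 CPM of Ciart, lie apart from KO-EtOH libraries, at 6.02 to 8.12 CPM, although both have low Dbp.

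Ciart, the gene of the repressor CHRONO, behaved otherwise. It was at 18.2, 19.7, 8.24 and 9.99 CPM in WT-ctr and at 50.1, 39.8, 40.9 and 45.2 CPM in WT-EtOH. Among knockouts it was at 11.1, 12.2, 10.1 and 8.18 CPM on control diet and at 6.02, 8.12, 7.25 and 8.06 CPM after ethanol. Every WT-EtOH library lay above all 12 others, and the KO-EtOH libraries lay just below the lowest KO-ctr library. Ethanol raised Ciart 3.13-fold in wild type (1.65 ± 0.22 log2, SE, edgeR adjusted p = 5.45e-05). In the knockout its change was -0.49 ± 0.23 log2 (adjusted p = 0.162).

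The difference between those ethanol changes was -2.14 ± 0.32 log2 (edgeR adjusted p = 0.00445), which ranked 14 by p among 14346 genes, of which 1.81% were called in either direction and 1.28% lower. After ethanol Ciart in the knockout was at 16.7% of the wild-type level (-2.58 ± 0.23 log2, adjusted p = 2.56e-06), and it ranked 27 by p in that comparison, which shares the WT-EtOH and KO-EtOH libraries with the interaction. On control diet the genotypes differed by -0.44 ± 0.22 log2 (adjusted p = 0.233). The ratio of Ciart to Dbp counts, chosen after the values were seen, was 1.495 to 2.73 in WT-EtOH, 0.190 to 0.611 in KO-EtOH, 0.109 to 0.217 in WT-ctr and 0.0854 to 0.148 in KO-ctr. In WT-EtOH it was above the other 3 groups in every library.

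The E-box CACGTG was found in 7.15% of the RefSeq windows. Of the 9 circadian genes with a window, Ciart and Per1 held it, in 2 of 11 windows. Bases outside the windows were not searched, so an E-box elsewhere in the other genes would not be seen. The Ciart window held 3 copies. The stretch of 156 bases that ends at the base before its start site is printed because Ciart showed the largest difference between genotypes, with the 3 E-boxes in capitals (chr3:95882229-95882384, minus strand).
Ciart: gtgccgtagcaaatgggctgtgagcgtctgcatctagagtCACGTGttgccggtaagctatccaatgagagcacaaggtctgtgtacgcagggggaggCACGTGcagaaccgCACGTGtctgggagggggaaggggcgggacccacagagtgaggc
The copies begin 116, 58 and 44 bases before the start site. A match describes these letters and is not evidence of binding.

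Nfil3, the D-box repressor that opposes DBP and is itself repressed by the REV-ERBs, followed the same split. It was at 20.05, 22.8, 30.9 and 29.1 CPM in WT-ctr and at 105.0, 75.3, 50.5 and 122.7 CPM in WT-EtOH. In the knockout it was at 24.6, 26.1, 24.0 and 20.1 CPM on control diet and at 34.6, 24.0, 21.3 and 29.8 CPM after ethanol. The WT-EtOH libraries again lay above all 12 others, with a wide spread of their own, and the 3 remaining groups overlapped. Ethanol raised Nfil3 3.44-fold in wild type (1.78 ± 0.23 log2, SE, edgeR adjusted p = 5.15e-05). With ethanol the knockout moved by 0.21 ± 0.23 log2 (adjusted p = 0.578). After ethanol the knockout stood at 31.0% of wild type (-1.69 ± 0.23 log2, adjusted p = 7.78e-05).

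The interaction for Nfil3 was -1.57 ± 0.33 log2 (edgeR adjusted p = 0.0279). Its call was lost with no filter on low counts (-1.56 log2, adjusted p = 0.0561), without KO-ctr library 1 (-1.55 log2), 2 (-1.52) or 3 (-1.57), without WT-ctr library 1 (-1.46) or 4 (-1.63), without WT-EtOH library 1 (-1.48), and without libraries 1 and 2 of KO-EtOH (-1.67). Over these the adjusted p ran up to 0.0647. The interaction for Ciart kept its call in all 22 alternatives, at -2.43 to -1.95 log2 and an adjusted p of at most 0.0245.

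Some markers of other liver cells were low in the WT-EtOH group, where Ciart and Nfil3 were high. The summed level of 5 Kupffer cell markers was 51.9 to 77.1 CPM in WT-EtOH against 93.5 to 195.8 CPM in KO-EtOH. In wild type ethanol lowered 4 of the 5, where 15.9% of all genes were called lower. The 6 monocyte and macrophage markers summed to 28.6 to 40.7 CPM in WT-EtOH and 88.2 to 239 CPM in KO-EtOH, and 1 of 2 rows named Itgam was at 0 in KO-EtOH. The 6 cholangiocyte markers differed between genotypes on both diets, with sums of 51.8 to 78.7 CPM in WT-ctr and 278.5 to 528.8 CPM in KO-ctr, and of 43.2 to 50.6 CPM in WT-EtOH and 179.8 to 840.9 CPM in KO-EtOH. Ethanol in wild type raised 1 of these 6 and lowered 0. Stellate cell markers were not low in WT-EtOH: the 5 summed to 254.6 to 328.6 CPM there, 150.7 to 215.5 CPM in WT-ctr and 194.9 to 317.5 CPM in KO-EtOH. Ethanol in wild type raised 2 of these 5, 2 of 5 sinusoidal endothelial markers and 3 of 8 hepatocyte markers, and lowered 0 in each list. Of all genes, 17.6% were called higher there. The part of these cells in the levels of Ciart and Nfil3 was not tested. Without KO-EtOH libraries 1 and 2 the knockout stood at -2.52 log2 of wild type after ethanol for Ciart and at -1.79 log2 for Nfil3.

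**Figure D3:**
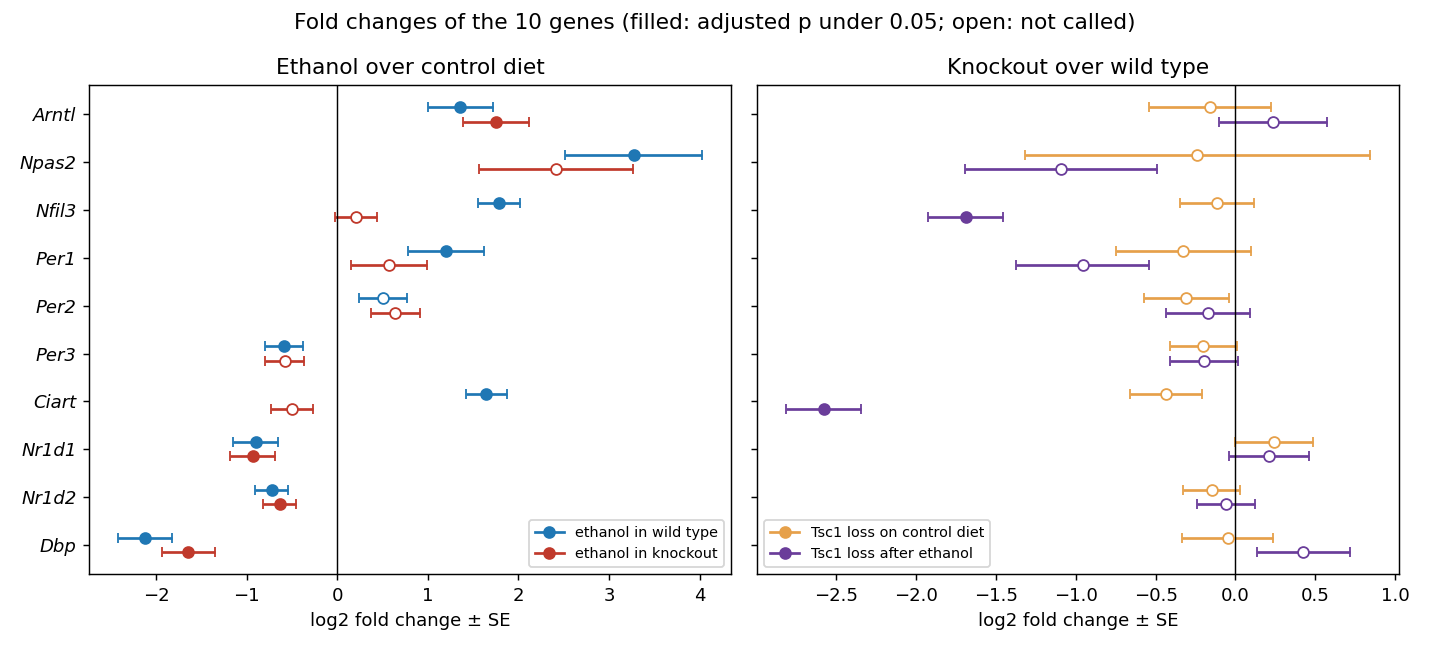
Log2 fold changes with SE (x axis) of the 10 genes (y axis), for ethanol over control diet in each genotype (left) and for knockout over wild type on each diet (right); filled points have an edgeR adjusted p under 0.05. Arntl, Nr1d1, Nr1d2 and Dbp are called in the same direction with ethanol in both genotypes, while Ciart (1.65 and -0.49) and Nfil3 (1.78 and 0.21) are called in wild type only.

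The 3 Period genes, which encode the classical repressors of the loop, did not move as 1 family. Per1, which responds quickly to hormones and feeding signals as well as to the clock, was at 36.8, 55.3, 14.2 and 24.3 CPM in WT-ctr and at 85.5, 73.7, 63.2 and 78.6 CPM in WT-EtOH. Knockout libraries were at 44.6, 28.8, 10.0 and 20.9 CPM on control diet and at 34.5, 28.6, 33.9 and 58.1 CPM after ethanol. The wild-type groups did not overlap, the knockout groups did, and the controls of each genotype spread widely. In both genotypes control libraries 1 and 2 lay above control libraries 3 and 4. Whether the library numbers mark a shared batch or hour of collection was not tested. Ethanol raised Per1 2.30-fold in wild type (1.20 ± 0.42 log2, SE, edgeR adjusted p = 0.0401). The knockout stood at 0.57 ± 0.42 log2 (adjusted p = 0.390).

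That call of Per1 in wild type was not firm. It was lost with no filter on low counts (1.21 log2, adjusted p = 0.106), without WT-ctr library 1 (1.26 log2), 3 (0.95) or 4 (1.08), without WT-EtOH library 1 (1.14), 2 (1.21), 3 (1.27) or 4 (1.18), without KO-ctr library 2 (1.20) or KO-EtOH library 3 (1.20), and without libraries 1 and 2 of KO-EtOH (1.20). After ethanol all 4 KO-EtOH libraries lay below all 4 WT-EtOH libraries for Per1, at -0.96 ± 0.42 log2 (adjusted p = 0.0848), where 31.7% of all genes had ranges that did not overlap. DESeq2 (adjusted p = 0.0371), the fit of the 2 groups alone (0.0103) and the fit without KO-ctr library 3 (0.0464) called it lower. The ethanol changes of Per1 differed between genotypes by -0.63 ± 0.59 log2 (adjusted p = 0.602).

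Per2 ranged over 36.2 to 46.4 CPM in WT-ctr, 28.5 to 83.2 CPM in WT-EtOH, 28.9 to 37.3 CPM in KO-ctr and 34.4 to 75.5 CPM in KO-EtOH. Both ethanol groups overlapped their controls and spread more widely. The ethanol change was 0.51 ± 0.26 log2 in wild type (edgeR adjusted p = 0.151) and 0.64 ± 0.27 log2 in the knockout (adjusted p = 0.119). WT-EtOH library 2 held the lowest level of its group, and without it Per2 was called higher in wild type (0.74 log2, adjusted p = 0.0130) and in the knockout (0.66 log2, adjusted p = 0.0365). In the knockout it was also called by voom (0.75 log2, adjusted p = 0.0262) and without libraries 1 and 2 of KO-EtOH (0.97 log2, adjusted p = 0.0354).

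Per3 went the other way. It ranged over 47.9 to 61.2 CPM in WT-ctr and 19.4 to 54.2 CPM in WT-EtOH, where library 1 lay inside the control range. In the knockout it ranged over 44.3 to 52.3 CPM on control diet and 26.7 to 35.8 CPM after ethanol, with no overlap. Per3 fell in wild type to 66.5% of the control level (-0.59 ± 0.21 log2, SE, edgeR adjusted p = 0.0419). The knockout stood at -0.58 ± 0.21 log2 (adjusted p = 0.0790). The wild-type call was lost with no filter (adjusted p = 0.105), with only the 2 groups compared (0.112), without KO-ctr library 2 (-0.59 log2) or 4 (-0.59), without WT-ctr library 1 (-0.52), 2 (-0.60) or 4 (-0.59), without WT-EtOH library 2 (-0.38) or 4 (-0.50), and without libraries 1 and 2 of KO-EtOH (-0.59). In the knockout Per3 was called by voom (-0.62 log2, adjusted p = 0.0284), with only the 2 groups compared (-0.57 log2, adjusted p = 0.00901), and without WT-EtOH library 1 (-0.58 log2) or 2 (-0.57 log2).

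The promoters of Per1 and Per3 are printed because these relatives moved in opposite directions in wild type. The D-box was searched as TTATGTAA or TTATGCAA on both strands and was found in 1.66% of all windows. Of the 9 genes with a window, Per1 and Per3 held it, in 2 of 11 windows. One Per1 window held an E-box 166 bases and a D-box 24 bases before the start site, and the Per3 window held 2 D-boxes, 205 and 158 bases before it. Both motifs are in capitals in the stretches below (Per1 at chr11:69098743-69098948, plus strand; Per3 at chr4:151044776-151044910, minus strand).
Per1: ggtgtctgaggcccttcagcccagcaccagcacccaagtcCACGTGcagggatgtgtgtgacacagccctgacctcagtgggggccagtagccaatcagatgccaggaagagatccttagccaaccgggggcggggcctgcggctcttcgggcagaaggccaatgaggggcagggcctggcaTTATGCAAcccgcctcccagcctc
Per3: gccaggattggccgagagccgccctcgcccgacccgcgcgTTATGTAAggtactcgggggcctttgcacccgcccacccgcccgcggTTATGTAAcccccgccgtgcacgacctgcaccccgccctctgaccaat
The cAMP response element, searched as TGACGTCA, was in 0 of the 11 windows of these genes and in 1.79% of all windows.

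Levels of different genes were compared per kilobase of their merged exons. In WT-ctr the order of mean CPM per kb was Dbp at 31.8, Nr1d2 at 21.8, Nr1d1 at 19.3, Nfil3 at 12.7, Per2 at 7.12, Ciart at 6.198, Per1 at 5.80, Per3 at 5.65, Arntl at 0.202 and Npas2 at 0.0214. The SDs over 4 libraries of Nr1d2 (4.27) and Nr1d1 (3.66) exceeded the gap between them, and the gaps between Per2, Ciart, Per1 and Per3 were likewise smaller than the larger SD of each neighbouring pair. In WT-EtOH Nfil3 came first at 43.6 CPM per kb, followed by Ciart at 19.5, then Per1 at 13.4 and Nr1d2 at 13.2, which differed by less than either SD, and Dbp was at 7.32. In KO-EtOH Nfil3 (13.54), Nr1d2 (12.7), Nr1d1 (11.95) and Dbp (9.84) differed from their neighbours by less than the larger SD, and Ciart, at 3.26, was next to Per3, at 3.28, above Arntl and Npas2.

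Over the 16 libraries, the genes most like Nr1d1 among 10617 ranked by Pearson r of log2 CPM were Pisd (r = 0.946), Cib1 (0.885), Bmf (0.885) and Primpol (0.880). Most like Arntl were Mdh2 (r = 0.920), Ethe1 (0.919), Ube2k (0.919) and Gstm4 (0.908). Over deviations from the group means r was 0.705 to 0.827 for the first 4 and 0.716 to 0.816 for the others. The libraries share their group differences and their scaling, so these values are a description.

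On control diet Tsc1 loss left the 10 genes between -0.44 log2 (Ciart) and 0.24 log2 (Nr1d1). EdgeR called 0 of them, 0 had an unadjusted p under 0.05, and DESeq2 and voom each called 0. The KO-ctr and WT-ctr ranges overlapped for all 10 genes, against 22.5% of all genes whose ranges did not overlap. These p-values do not show that the levels were equal: the SE was 0.18 to 0.42 log2 for 9 of the genes and 1.08 log2 for Npas2.

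The other clock genes were taken from a list of 14, all tested. Ethanol in wild type raised 5 and lowered 1 of them, against 17.6% of all genes called higher and 15.9% called lower. Clock, the partner of BMAL1, rose by 0.93 ± 0.18 log2 (edgeR adjusted p = 0.00121), from 23.8 to 47.5 CPM across WT-ctr to 57.9 to 81.8 CPM across WT-EtOH. The casein kinase genes Csnk1e and Csnk1d, whose products mark PER proteins for decay, rose by 1.04 ± 0.19 and 0.42 ± 0.08 log2, and Tef, a relative of Dbp, fell by 0.76 on the log2 scale (adjusted p = 3.31e-04). In the knockout, where 7% of all genes were called higher and 7.11% lower, ethanol raised Csnk1d (0.26 ± 0.08 log2, adjusted p = 0.0441) and lowered Tef (-0.66 ± 0.13 log2, adjusted p = 0.00333) and the repressor gene Bhlhe41 (-1.38 ± 0.33 log2, adjusted p = 0.0127). The knockout call of Csnk1d was lost under 14 of 23 alternatives, 11 of which left out a single library, among them the replicate block (adjusted p = 0.0509), and that of Bhlhe41 was lost without libraries 1 and 2 of KO-EtOH (-1.44 log2). The median change of the 14 was -0.01 log2 in wild type and -0.13 log2 in the knockout.

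Between genotypes, Tsc1 loss on control diet raised Bhlhe41 (1.38 ± 0.33 log2, edgeR adjusted p = 0.0130) and Btrc, which encodes a subunit of the ubiquitin ligase that degrades PER proteins (0.45 ± 0.10 log2, adjusted p = 0.0103). After ethanol Btrc was again higher in the knockout (0.45 ± 0.11 log2, adjusted p = 0.00368). Rora, the gene of the receptor that activates Arntl, was lower there by 1.31 on the log2 scale (SE 0.24, adjusted p = 6.22e-04), at 67.5 to 92.4 CPM in KO-EtOH against 98.3 to 251.4 CPM in WT-EtOH. Cry2, the repressor partner of the PER proteins, was lower by 0.44 (SE 0.10, adjusted p = 0.00294). In all, 2 of the 14 (14.3%) rose and 0 fell on control diet, against 12.3% of all genes called, with a median of 0.07 log2. After ethanol 1 rose and 3 fell (28.6%), against 38.7% of all genes called, with a median of -0.11 log2. The interaction was called for 0 of the 14 by edgeR, against 1.81% of all genes. An unadjusted p under 0.05 was found for 4 of the 14, for which no share of all genes is given. DESeq2 and voom called 1 of the 14 each, where they called 761 and 545 of all 14346 genes.

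Of 12 genes described as liver targets of the clock or of the D-box factors, ethanol in wild type raised 3 and lowered 3, against 17.6% of all genes called higher and 15.9% called lower, with a median of -0.41 log2. Insig2, a brake on sterol synthesis and a target of REV-ERB alpha in mouse liver, was at 70.5 to 108.4 CPM in WT-ctr and 815 to 1072 CPM in WT-EtOH (3.39 ± 0.21 log2, edgeR adjusted p = 1.16e-07). In the knockout it was at 102.9 to 153.6 CPM on control diet and 313.9 to 555.7 CPM after ethanol (1.69 ± 0.19 log2, adjusted p = 7.61e-05). The interaction for Insig2 was called, at -1.70 ± 0.27 log2 (adjusted p = 0.00651), and was the only 1 of the 12 that edgeR called, against 1.81% of all genes. DESeq2 called 2 of the 12, where it called 761 of all 14346 genes.

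Por, the electron donor of microsomal P450 enzymes, rose with ethanol in wild type (1.54 ± 0.15 log2, edgeR adjusted p = 3.30e-06) and in the knockout (0.81 ± 0.15 log2, adjusted p = 0.00267), and was lower in the knockout on control diet (-0.77 ± 0.15 log2) and after ethanol (-1.50 ± 0.15 log2). Ppara, the gene of the fasting-responsive receptor of fat oxidation, fell by 1.45 and by 1.02 on the log2 scale. Cyp7a1, the rate-limiting enzyme of bile acid synthesis, fell in wild type by 3.52 (SE 0.72, adjusted p = 0.00205) and stood at -1.38 ± 0.66 log2 in the knockout (adjusted p = 0.177). It was higher in the knockout after ethanol (2.38 ± 0.69 log2, adjusted p = 0.0142), a call lost with only the 2 groups compared (adjusted p = 0.0674) and without libraries 1 and 2 of KO-EtOH (1.93 log2, adjusted p = 0.106). Elovl3, a fatty acid elongase gene with a strong daily rhythm in mouse liver, was lower in the knockout after ethanol by 2.85 (SE 0.61, adjusted p = 0.00246). Of the 12 output genes, 2 rose and 1 fell with ethanol in the knockout, against 14.1% of all genes called. With Tsc1 loss on control diet 0 rose and 1 fell, against 12.3% of all genes, and 2 were called without KO-EtOH library 1 or 2. With Tsc1 loss after ethanol 1 rose and 5 fell, against 38.7% of all genes, and 3 were called when libraries 1 and 2 of KO-EtOH were both left out.

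**Figure D4:**
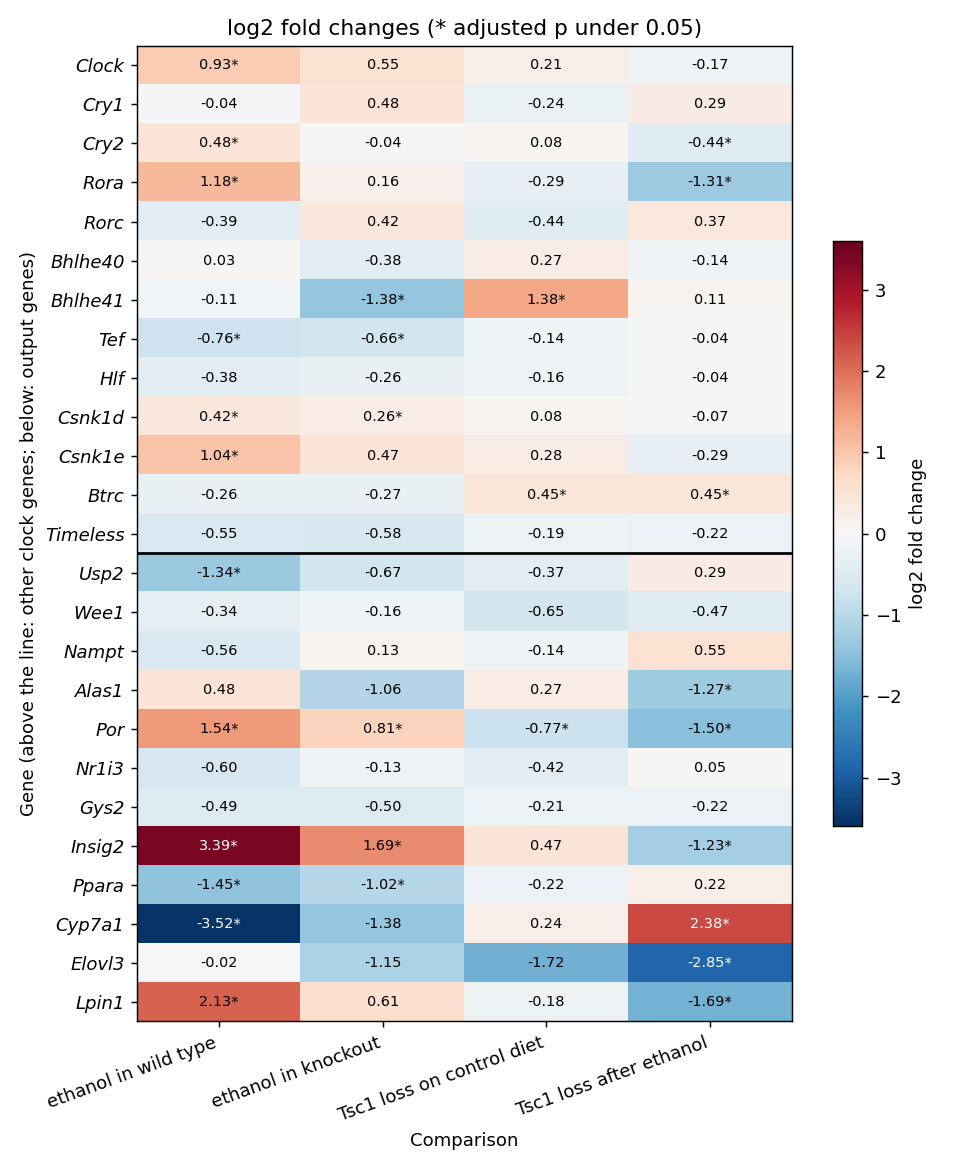
Log2 fold changes (colour and printed value) of other clock genes (above the line) and 12 clock output genes (below) in the 4 pairwise comparisons; an asterisk marks an edgeR adjusted p under 0.05. Insig2 has the largest rise, 3.39 in wild type and 1.69 in the knockout. Clock, Cry2, Rora and Csnk1e are called higher with ethanol in wild type and not in the knockout. For these 4 the interaction, the ethanol change in the knockout minus that in wild type, was not called. Cry2 and Rora are called lower in the knockout after ethanol.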

How the data were processed

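The authors deposited raw read counts per gene for 16 libraries. Per the labels' protocols, polyA RNA was made into libraries with a NEBNext stranded kit and read as single reads of 75 bp. The submitters' processing notes name Trimmomatic 0.36, HISAT2 2.1.0, HTSeq and the build GRCm38. For the strand option of the counting and the annotation release, the entry is: not given in the sources used here. Rows without a gene symbol (7436 of 55487, holding 0.227 to 0.479% of counts) were left out. Genes were filtered with filterByExpr, scaled by TMM and tested with edgeR 4.0.16 in R 4.3.3 (glmQLFit and glmQLFTest, robust, 1 mean for each of 4 groups, residual degrees of freedom 12, BCV 0.205). The SE is the log2 fold change divided by the square root of F. The fit was tested on simulated data. CPM error is the SD over 4 libraries.

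The members, lists and tests were chosen with earlier results of these data known. The genes named outside the 10 are, per comparison, up to 4 called members of a list with the smallest p and uncalled members with a high mean CPM; ranges of CPM and the Ciart to Dbp ratio were chosen after values were seen. Alternatives were DESeq2 1.42.0, limma 3.58.1 (voom with quality weights), DESeq2 size factors in edgeR, no filter, only the 2 groups compared, a replicate block, and leaving out libraries. Counts of 0 to 36, as for Npas2 and Arntl, limit precision, and without molecular identifiers PCR copies cannot be removed from the counts. No pair of libraries of a group agreed within sampling noise. The values of 1 other clock gene are not reported here; it is counted in its list.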

Additional observations from a re-analysis of the deposited data

Results flagged for a closer look

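Nfil3 was flagged because its ethanol change differed between genotypes, by -1.57 log2 in the knockout minus wild type (edgeR adjusted p = 0.0279). Ciart was flagged for the same reason, at -2.14 log2 (adjusted p = 0.00445), with the ethanol change upward in wild type and not called in the knockout. The Dbp level of KO-ctr library 2, 82.2 CPM, stood apart from the 93.9 to 95.8 CPM of the other 3 libraries of its group. This was the only such library found in 40 groups of 4 that were examined (10 genes in 4 groups), where chance alone flags about 1 group in 20.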

How the results depend on the processing

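With the replicate number as a block, each of the 50 values of the 10 genes (5 comparisons) kept its direction and its side of the threshold, and output genes called for Tsc1 loss on control diet went from 1 to 2. Deviations of same-numbered libraries correlated at -0.146 to 0.414, above 0.1 in 7 of 24 pairs. Their mean was 0.049, against -0.016 for libraries with different numbers. Between KO-ctr and WT-ctr the same-numbered values were all positive, at 0.095, 0.056, 0.414 and 0.120 for libraries 1 to 4. These values cannot exclude that the numbers pair some of the libraries. DESeq2 size factors also kept all 50 values, DESeq2 kept 49, no filter 46, voom 43, leaving out libraries 1 and 2 of KO-EtOH 41, and comparing only the 2 groups 33 of the 37 it gave. Of the 10 genes 1 kept its interaction call with no filter and 1 without libraries 1 and 2 of KO-EtOH, and voom called 7 for ethanol in the knockout.

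Uncalled values changed sign. Under voom these were Per1 (0.019), Dbp (0.033) and Lpin1 (0.29) for Tsc1 loss on control diet, Per2 after ethanol (0.013), and the interactions of Nr1d2 (-0.085) and Tef (-0.029). Under the block it was Bhlhe40 for ethanol in wild type (-0.0036). Without libraries 1 and 2 of KO-EtOH they were Per2 (0.16), Dbp (-0.0019), Bhlhe40 (0.16) and Gys2 (0.062) after ethanol and the interaction of Per3 (-0.0058). All are log2 values and the cause was not tested.

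Genes called for the interaction were 259, against 761 by DESeq2, 545 by voom and 116 without libraries 1 and 2 of KO-EtOH. Voom called 3603 genes for Tsc1 loss on control diet (1766 here) and 3302 for ethanol in the knockout (2024 here), and 5 other clock genes there (3 here). For the interaction DESeq2 and voom each called 1 other clock gene, and DESeq2 called 2 output genes. Output genes called for Tsc1 loss on control diet were 2 by voom, with only the 2 groups compared and without libraries 1 and 2 of KO-EtOH, and after ethanol 3 without those libraries.

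Leaving out each library in turn gave 1091 to 2167 genes for Tsc1 loss on control diet, 1114 to 2279 for ethanol in the knockout and 53 to 495 for the interaction. Of the 10 genes, 2 to 6 were called for ethanol in the knockout and 1 to 2 for the interaction, with 0 to 2 other clock genes there and 1 to 2 output genes for Tsc1 loss on control diet. For Tsc1 loss on control diet the log2 ranges that crossed 0 were Arntl -0.38 to 0.039, Dbp -0.15 to 0.12, Npas2 -0.80 to 1.80, Per1 -0.72 to 0.052 and Lpin1 -0.74 to 0.40. After ethanol they were Nr1d2 -0.15 to 0.12, Per2 -0.39 to 0.034, Per3 -0.39 to 0.069, Bhlhe40 -0.25 to 0.027 and Tef -0.13 to 0.020. For the interaction they were Nr1d1 -0.21 to 0.18, Nr1d2 -0.035 to 0.27, Per2 -0.084 to 0.34 and Per3 -0.19 to 0.27. For ethanol, Bhlhe40 in wild type ran from -0.14 to 0.25 and Lpin1 in the knockout from -0.16 to 1.17. None of these was called in the fit reported.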
